A study of Mus musculus with 22 samples.

Results

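DNA methylation was compared between mammary glands of 6 FVB mice at weeks 10 and 12 and 6 FVB mice at weeks 6 and 8, with 3 mice at each week. These 12 libraries are the normal controls of a series of 22 libraries that also holds 10 MMTV-PyMT mice of the same weeks. They were chosen by their label as FVB and their week alone. The controls were homozygous FVB females without the transgene and received no treatment. The PyMT mice were F1 females on the same background, heterozygous for a polyoma virus middle T antigen under the MMTV promoter, which is active mainly in the mammary epithelium. PyMT mice enter only where they are named, as 5 mice at weeks 10 and 12 and 5 at weeks 6 and 8. FVB DNA came from snap-frozen bulk normal gland, so each library mixes epithelium, fat, stroma, vessels and blood cells. PyMT DNA came from bulk mammary tumor tissue by the study's methods, labelled as mammary gland with a tumor stage for each week. Transgene and tissue therefore cannot be told apart where PyMT and FVB levels are compared.

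The female mouse mammary gland grows during puberty as ducts push out from terminal end buds through a pad of fat cells, and ductal growth comes to a close in the young adult, when estrous cycles drive side branching. The ducts hold an inner layer of luminal cells and an outer layer of basal myoepithelial cells. Cytosine methylation at CpG sites is usually low at active promoters and enhancers of a cell type and high over most of the rest of the genome, and many enhancers and cell-type genes sit at intermediate levels in a mixed tissue. In such bulk DNA a change in the share of cells of a type and a change of methylation within cells cannot be told apart.

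ERRBS, a bisulfite method for CpG-rich DNA, reads methylation as the percent of reads at a cytosine that stayed unconverted. The comparison used 1148317 autosomal CpG positions covered by at least 10 reads in all 12 libraries. All of them fell on a CpG of the reference. Coverage averaged 63.5 to 79.2 reads per position in the 12 files, and 0.172% to 0.242% of mitochondrial cytosines were read as methylated, a gauge of incomplete conversion. Neither of these, nor the total coverage or number of positions, differed between the periods (exact permutation test, adjusted p = 0.933 for each). Libraries of the same week differed by more than sampling noise in all 12 pairs (chi-square statistics averaging 1.82 to 3.48 over positions). FVB week 8 replicate 2 stood apart, with 1266 regions more than 10 points outside all other libraries, followed by FVB week 6 replicate 2 with 634, against 74 to 219 in the other 10. RNA was not measured in these libraries, so the tissue label could be set only against methylation. The promoters of the epithelial genes described further on, such as Elf5 and Krt5, were partly methylated in every library.

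Sequences of sites described further on are shown first, chosen after their values were seen to stand for the epithelial, Hox, endothelial and other sites. They are read from the plus strand of GRCm38, the assembly also called mm10, and capitals mark the CpG sites called as differentially methylated cytosines (DMCs) between the periods. A DMC here had a q-value under 0.01 in a logistic test on pooled reads and a difference of at least 10 points. The first set holds DMC gains at weeks 10 and 12, in a coding exon of Hoxb6 in which all 9 measured CpG sites were DMCs, an intron of Dysf, an intergenic site near Ifitm1, and stretches within 2 kb of a RefSeq TSS of Elf5, Krt5 (within its coding exon) and the Mir200c and Mir141 cluster. The Elf5 stretch lies inside the gene, near a TSS downstream of its first one. For the microRNAs the TSS is the start of the short RefSeq microRNA gene, not a mapped start of transcription.

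Hoxb6, chr11:96300733-96300883: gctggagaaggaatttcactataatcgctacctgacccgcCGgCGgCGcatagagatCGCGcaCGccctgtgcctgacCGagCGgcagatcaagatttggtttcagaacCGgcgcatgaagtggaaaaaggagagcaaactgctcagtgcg
Dysf intron, chr6:84134897-84135019: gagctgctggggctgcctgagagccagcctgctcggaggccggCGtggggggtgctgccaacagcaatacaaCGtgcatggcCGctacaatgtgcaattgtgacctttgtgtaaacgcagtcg
Ifitm1 distal, chr7:140981936-140982118: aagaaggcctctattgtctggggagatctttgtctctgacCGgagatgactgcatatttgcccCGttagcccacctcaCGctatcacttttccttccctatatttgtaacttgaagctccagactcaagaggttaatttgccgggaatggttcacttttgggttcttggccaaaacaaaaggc
Elf5 promoter, chr2:103423612-103423692: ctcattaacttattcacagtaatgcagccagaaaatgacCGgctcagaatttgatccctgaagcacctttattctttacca
Krt5 promoter, chr15:101712438-101712566: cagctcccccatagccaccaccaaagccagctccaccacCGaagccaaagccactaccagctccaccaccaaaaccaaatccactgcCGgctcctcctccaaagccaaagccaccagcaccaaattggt
Mir200c and Mir141 promoter, chr6:124718745-124718875: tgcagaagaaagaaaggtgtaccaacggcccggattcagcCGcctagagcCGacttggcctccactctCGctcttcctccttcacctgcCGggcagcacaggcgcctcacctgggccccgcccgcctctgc

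The second set holds DMC losses, in introns of Celsr1 and Coro1c, and a site within 2 kb of the TSS of Cdh5.

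Celsr1 intron, chr15:86028207-86028300: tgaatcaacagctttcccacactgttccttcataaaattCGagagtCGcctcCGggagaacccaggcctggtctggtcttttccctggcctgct
Coro1c intron, chr5:113890950-113891176: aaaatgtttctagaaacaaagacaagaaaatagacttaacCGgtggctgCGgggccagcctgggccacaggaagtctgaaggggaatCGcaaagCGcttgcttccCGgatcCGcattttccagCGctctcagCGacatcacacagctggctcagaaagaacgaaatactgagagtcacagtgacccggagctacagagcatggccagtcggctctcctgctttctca
Cdh5 promoter, chr8:104099714-104099794: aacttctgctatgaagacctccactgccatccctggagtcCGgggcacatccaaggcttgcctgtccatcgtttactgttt

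The microRNAs next to the Mir200c site keep epithelial cells epithelial by repressing Zeb factors. Their mature 3p forms from RefSeq (GRCm38.p6) are given with the seed, bases 2 to 8, in capitals, to show that the seeds differ in a base.

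mmu-miR-200c-3p: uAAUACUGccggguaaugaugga
mmu-miR-141-3p: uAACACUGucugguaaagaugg

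Mean methylation over all positions was higher in every mouse of weeks 10 and 12 than in every mouse of weeks 6 and 8. It ranged from 25.68% to 25.99% (median 25.87%) in the younger mice and from 26.08% to 26.16% (median 26.11%) in the older ones. The means were 25.9% ± 0.123 and 26.1% ± 0.0277 (SD, n = 6 each), a difference of 0.259 points (two-sided exact permutation test, p = 0.00216, the smallest that 924 arrangements can give; adjusted p = 0.00433 over 8 classes of position). The younger mice spread more than the older ones. Without both libraries that stood apart the difference was 0.25 points (exact p = 0.00476). Week means were 25.8% and 25.9% at weeks 6 and 8 and 26.1% at both weeks 10 and 12. All 19 autosomes were higher at weeks 10 and 12, by 0.199 to 0.348 points (adjusted p at most 0.0108 by the exact test).

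The difference was larger outside promoters. Positions within 2 kb of a TSS moved by 0.0536 points from 3.65% (exact p = 0.0433, adjusted p = 0.0495), and the periods overlapped. Intron positions rose by 0.63 points from 62.5% ± 0.306 to 63.1% ± 0.106, and intergenic positions by 0.584 points from 57.2% ± 0.246 to 57.8% ± 0.0822 (SD, n = 6; exact p = 0.00216 and adjusted p = 0.00433 for each). Exon positions rose by 0.475 points (exact p = 0.00649, adjusted p = 0.0104). By level, positions with a mean between 20% and 80% rose most, by 1.16 points from 55.5% ± 0.558 to 56.7% ± 0.203 (SD, n = 6; exact p = 0.00216, adjusted p = 0.00433), with 56.6% of these 162218 positions higher in the older mice. Positions of 80% or more rose by 0.391 points (exact p = 0.00866, adjusted p = 0.0115), and those under 20% differed by 0.0309 points (exact p = 0.294). These means give each position equal weight. When all reads were pooled, deeply covered positions weighed more. The difference over all positions was then 0.083 points (exact p = 0.913) and that of intermediate positions 0.308 points (exact p = 0.688). Intergenic positions changed sign, at -0.28 points (exact p = 0.779), while intron positions stayed higher, by 0.752 points (exact p = 0.167). Among the 8 classes only positions of 80% or more were past the threshold, at 0.398 points (exact p = 0.00216, adjusted p = 0.0173). Pooled means over all positions spread more between mice, at 24% ± 1.39 and 24.1% ± 1.34 (SD, n = 6 each). The share of reads at promoter positions ranged from 57.3% to 62% between libraries.

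**Figure D1:**
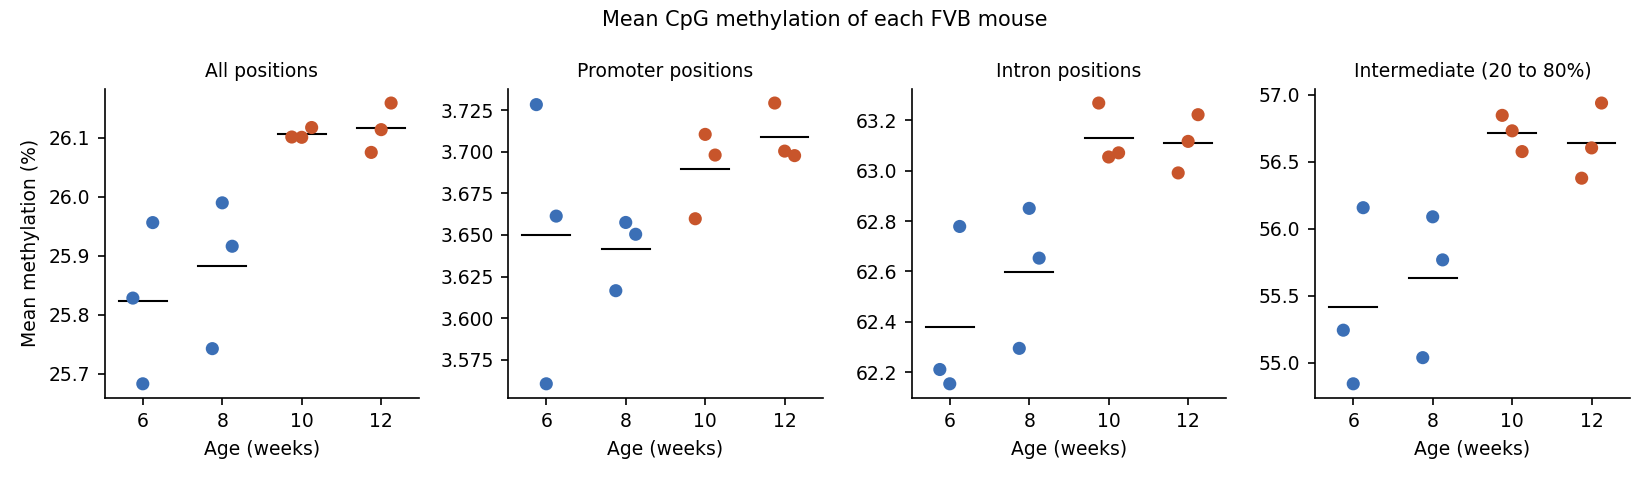
Mean methylation in percent (y axis; the scales do not start at 0 and differ between panels) of each of the 12 FVB mice (points) by age in weeks (x axis), over all, promoter, intron and intermediate positions; lines are week means, blue marks weeks 6 and 8 and orange weeks 10 and 12. The older mice lie above all younger mice in every panel except that of promoters.

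Position by position, 7245 DMCs were hypermethylated and 2960 hypomethylated at weeks 10 and 12, 71% of all DMCs being gains. This was 0.631% and 0.258% of the positions tested. The test counts pooled reads and leaves out the spread between mice. With that spread in the test the calls shrank. Scaling the test by overdispersion left 204 gains and 68 losses against a chi-square distribution and 0 against an F distribution, as did limma on each position (21523 positions higher and 12935 lower at an unadjusted p under 0.05; 50187 in either direction by the F test). In simulated counts that vary between samples, the F test recovered 0% of 20-point changes and limma 13.25%. Their 0 calls therefore cannot show that no position changed. The logistic test recovered 85% there, but 25.34% of its calls were false. That share belongs to the simulated setting, in which 2000 of 200000 positions were changed and the spread between samples was assumed. The false share among the measured DMCs is not known. Without both libraries that stood apart the logistic test on the measured reads called 5324 gains and 2052 losses. Differences were moderate, with a median of 13.7 points among gains and 13.3 points among losses, and 113 gains and 35 losses reached 25 points. In 545 of the gains (7.52%) and 201 of the losses (6.79%) the 6 older mice did not overlap the 6 younger ones. Over all positions this was 0.0818% and 0.0434%. The DMCs were chosen in these same mice for their difference, so a higher share among them was built in.

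Most DMCs lay far from promoters. Of the gains 88.7%, and of the losses 87.3%, were more than 2 kb from a TSS, where 39.3% of the measured positions lay. The share of positions that were gains was 0.118% in promoters, 1.17% in exons, 1.64% in introns and 1.38% between genes, and the shares of losses were 0.0541%, 0.486%, 0.688% and 0.526%. Much of this went with level, since promoters are mostly unmethylated. Among positions between 20% and 80%, 3.04% were gains within 0.5 kb of a TSS and 4% beyond 50 kb, and losses made up 1.31% and 1.42%.

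**Figure D2:**
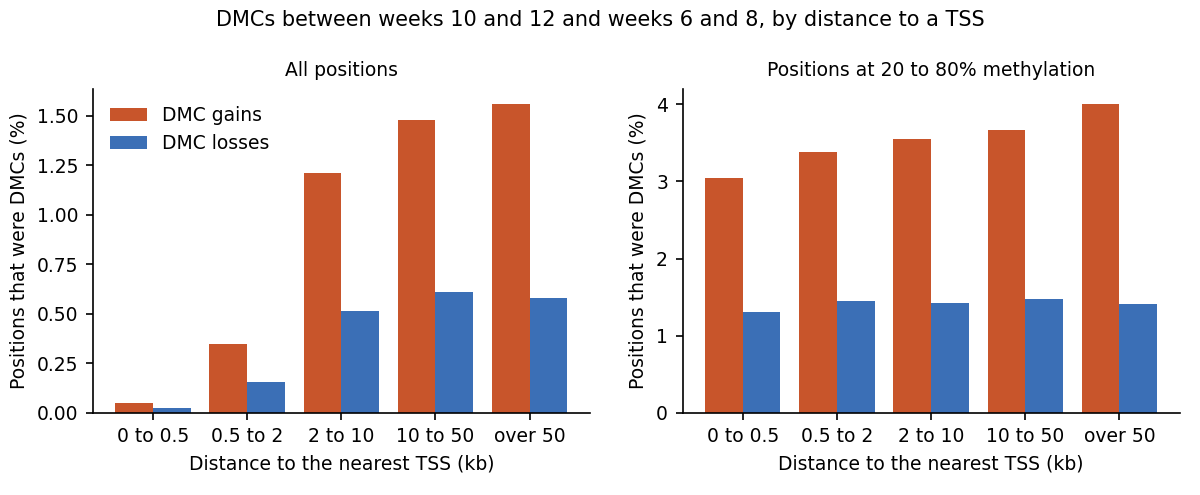
Percent of positions that were DMC gains (orange) or losses (blue) at weeks 10 and 12 (y axis) by distance to the nearest TSS in kb (x axis), for all positions and for those with a mean methylation of 20% to 80%. Over all positions the share of gains climbs from 0.0505% within 0.5 kb to 1.56% beyond 50 kb, while among intermediate positions it stays between 3.04% and 4%.

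Promoters were compared gene by gene as the mean over positions within 2 kb of a TSS, for 16017 genes with at least 3 positions. limma, which tests over mice, called 0 genes in either direction at an adjusted p under 0.05 and 5 points (smallest adjusted p = 0.322). At an unadjusted p under 0.05, 677 genes (4.23%) were higher and 311 (1.94%) lower at weeks 10 and 12. Without both libraries that stood apart these counts were 493 and 465. The median difference was 0.0101 points and 53.6% of the promoters were higher. The periods did not overlap in 34 higher (0.212%) and 13 lower promoters (0.0812%). A DMC gain was found in 583 promoters (3.64%) and a loss in 287 (1.79%). The promoters described next are therefore given by their values, and none of them passed the test across all genes. Each adjusted p is limma's.

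The 6 higher promoters with the smallest p held an epithelial regulator and a Hox gene. Elf5, an ETS factor that drives luminal progenitors to the alveolar fate, lay at 24.7% to 35.4% (median 31.4%) in the younger mice and at 35.8% to 48.4% (median 41.5%) in the older ones. The periods did not overlap, and the difference was 10.65 points (SE 2.21, adjusted p = 0.679). Hoxa10, a homeobox gene of the posterior body axis, was nearly unmethylated at 1.51% to 3.23% and then at 3.75% to 4.89%. The long noncoding RNA gene Platr30 moved from 1.42% to 2.64% up to 3.06% to 3.81%, and Ifitm3, an interferon-induced gene that blocks virus entry, from 0% to 0.435% up to 0.595% to 1.63%. 4933409F18Rik stood at means of 69.3% and 81.2%, a difference of 11.94 points (SE 1.94, adjusted p = 0.322), and Ano9, of the anoctamin family, stood at 60.9% and 70.2%. None of these 6 pairs of ranges overlapped.

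Gene lists of the mammary epithelium are given as counts, with no test of a list. They are to be read against the 53.6% of all promoters that were higher and the 3.64% with a DMC gain. These shares of all promoters were not matched to the lists for number of positions or level. Of 13 luminal markers 11 were higher and 2 lower (median difference 0.454 points), 4 of them (Krt18, Ehf, Cldn7 and Muc1) at an unadjusted p under 0.05, and 4 (Krt18, Krt7, Ehf and Cldn4) held a DMC gain and 0 a loss. Ehf, an epithelial ETS factor, lay at 36.9% to 60.1% (median 57.4%) and then at 60.4% to 72% (median 63.1%). The ranges did not overlap, though the lowest young mouse, FVB week 6 replicate 1, was far below the rest. Krt7, a keratin of simple epithelia, stood at 36.6% to 45.2% and then 38.6% to 50.7%, and the tight junction gene Cldn4 at 34.9% to 46% and 39.4% to 48.3%, both with overlap. Of 7 basal and myoepithelial markers 5 were higher. Krt5, the basal keratin, lay at 56.1% to 71% (median 67.5%) and then at 66.2% to 76.7% (median 72%), a difference of 6.05 points (SE 2.61, adjusted p = 0.795). Myh11, smooth muscle myosin, differed by 2.23 points. Sox10, a factor of mammary stem and progenitor cells, held 7 DMC gains and lay at 16.5% to 25.6% and then at 20.8% to 26.2%, with overlap.

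The Mir200c and Mir141 promoters are the same 21 positions and held 8 DMC gains. They lay at 38.9% to 54.9% (median 46.1%) in the younger mice and at 47.3% to 59.1% (median 57.7%) in the older ones, a difference of 9.27 points (SE 2.89, adjusted p = 0.725). The ranges overlapped through FVB week 10 replicate 3, the lowest older mouse. Among 15 hormone receptors and luminal regulators 11 were higher and 4 lower. Beside Elf5, the progesterone receptor Pgr moved from 0.383% to 0.718% up to 0.657% to 1.09%, and Tfap2c from 0.912% to 1.51% up to 1.3% to 1.86%. The estrogen receptor Esr1 was lower, at 13.9% to 20.9% and then 11.3% to 17.7%, with 1 DMC loss. The prolactin receptor Prlr differed by 2.45 points against a spread of 7.4 points (SD) in the younger mice. Of 6 milk protein and alveolar genes 4 were higher and 2 lower. The casein gene Csn3 stood at 14.2% and then 17.5%, and Wap, a whey protein gene, at 75.8% and then 74.5%.

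Of 39 Hox genes measured, 11 (28.2%) held a promoter gain and 4 (10.3%) a loss, against 3.64% and 1.79% of all promoters. Those shares were not matched for number of positions or level, and Hoxa10 and Hoxa5 alone had 120 and 96 measured positions. Of the 39, 24 were higher and 15 lower (median difference 0.0601 points), where 53.6% of all promoters were higher. The gains lay in the Hoxa and Hoxb clusters but for Hoxc11, and the losses in Hoxc5, Hoxc6, Hoxc9 and Hoxc10. Hoxb6, a gene of mid-trunk identity, held 13 gains and lay at 9.77% to 17.9% (median 14.4%) and then at 16.9% to 28.1% (median 22.6%), a difference of 8.14 points (SE 2.14, adjusted p = 0.694). Its neighbour Hoxb5 held 10 gains and stood at 13.3% to 24.9% and then 17.8% to 23.5%, the overlap resting on FVB week 8 replicate 2. Hoxa5 held 14 gains, yet its promoter spread from 12.5% to 37.8% among the younger mice and from 26.8% to 35.8% among the older ones, and its difference of 4.95 points ranged from 2.5 to 7.56 points as FVB week 8 replicate 1 or 2 was left out. Hoxc9 had means of 7.98% and 4.38%, with 4 DMC losses and values of 4.01% to 14.5% in the younger mice. Of 82 other homeobox, paired box, T-box and Sox genes, 52 were higher and 30 lower, and 5 held a gain and 5 a loss. The limb gene Tbx4 differed by 1.68 points.

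**Figure D3:**
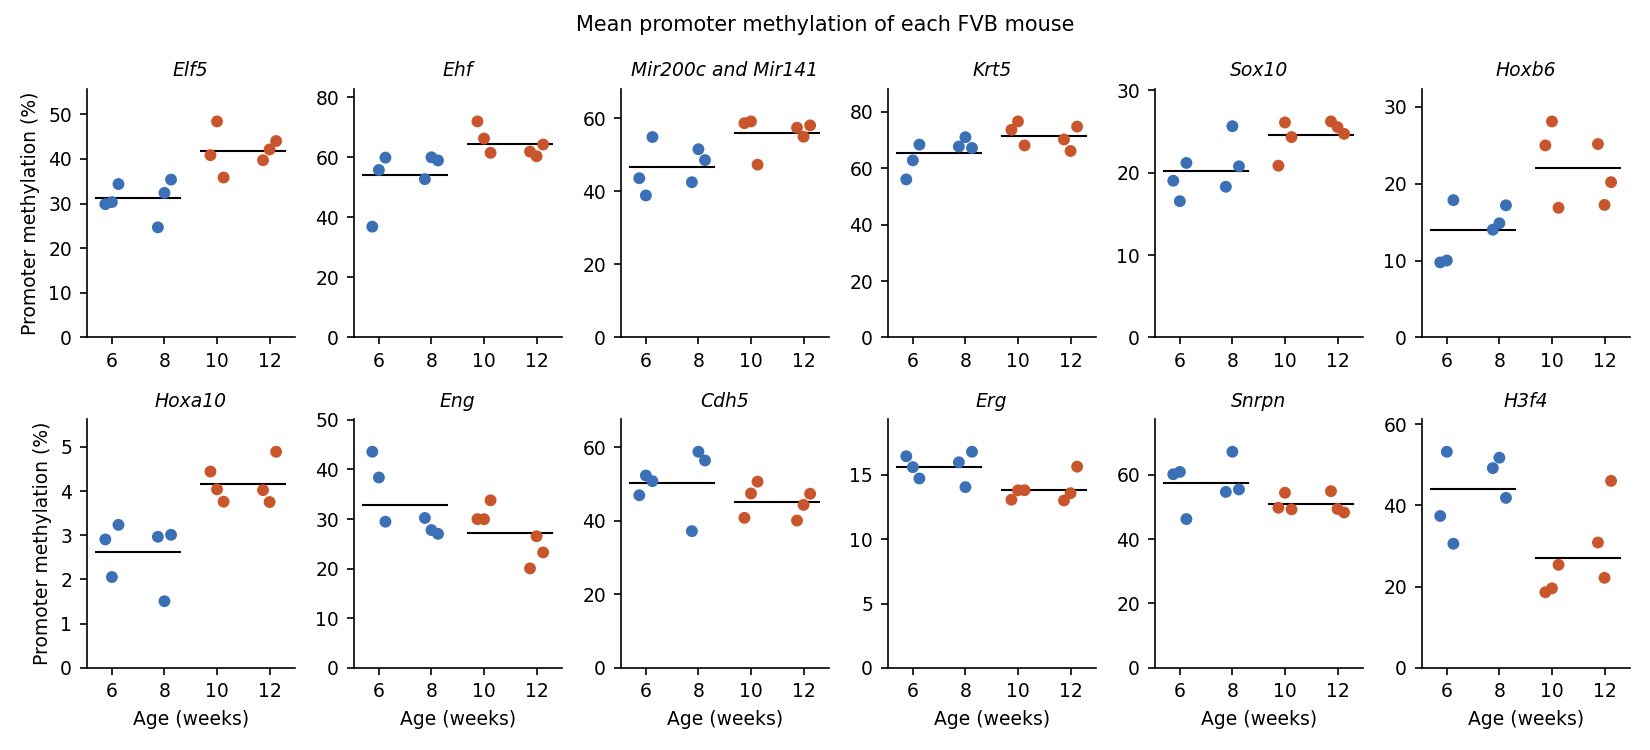
Mean promoter methylation in percent (y axis, from 0, scales differ) of each of the 12 FVB mice (points) by age in weeks (x axis) for 12 genes, chosen after their values were seen; black lines are the means of weeks 6 and 8 (blue) and of weeks 10 and 12 (orange), n = 6 each. The periods do not overlap for Elf5, Ehf and Hoxa10 and overlap for the other genes.

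Of 12 endothelial genes measured, 7 were lower and 5 higher at weeks 10 and 12 (median difference -0.358 points), where 53.6% of all promoters were higher. DMC losses lay in 4 of the 12 (33.3%), Cdh5, Eng, Erg and Esam, against 1.79% of all promoters, and a gain in Eng. The share over all promoters was not matched for level, and Cdh5 and Eng were partly methylated. Eng, a TGF-beta co-receptor of vessels, lay at 27% to 43.6% and then at 20% to 33.8%, a difference of -5.47 points (SE 3.1, adjusted p = 0.885), on a mean coverage of only 22.5 reads, and of -3.31 points without FVB week 6 replicate 1. Cdh5, VE-cadherin, lay at 37.2% to 58.8% and then at 40.1% to 50.6%, with 3 positions. Its difference of -5.29 points was -2.72 points without both libraries that stood apart and -7.94 points without FVB week 8 replicate 1. Erg, an endothelial ETS factor, stood at 14.1% to 16.8% and then at 13% to 15.6%. The receptors Kdr and Flt4 were nearly unmethylated; Kdr lay at 1.46% to 2.01% and then at 0.933% to 1.38%, without overlap.

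In the other cell-type lists most differences were small. Of 12 adipocyte genes 5 were higher and 7 lower (median difference -0.0272 points). Lep, the leptin gene, stood at 55.8% and 53.5%, Plin1, a lipid droplet coat gene, at 89.2% and 93.5%, and the lipase gene Lipe at 21.3% and 19.2%, without overlap of the periods. All 5 brown adipocyte genes were higher, with differences of 0.0156 to 1.88 points, the last in Elovl3, where it was 0.482 points without FVB week 12 replicate 3 and 2.9 points without FVB week 10 replicate 2. Cidea stood at 0.566% and 1.08%. Of 10 fibroblast and matrix genes 6 were higher, and Col1a1 and Mmp2 had the largest differences, -1.26 and -0.519 points. Of 14 leukocyte and lymphocyte genes 10 were higher, Cd22 at 72.2% and 77.2% and Zap70 at 76.5% and 78.2%, and of 3 myeloid genes Csf3r at 20.8% and 25.5% and Adgre1 at 78% and 78.8%. Of 11 skeletal muscle genes 7 were higher; Ckm stood at 50.4% and 58.2% and Acta1 at 27.4% and 23.5%. Of 4 skin genes 2 were higher and 2 lower, with Krt35 at 86.4% and 87.6% and Krt71 at 51.8% and 51.2%. The list means of luminal markers lay at 14.1% to 16.8% in the younger and 16.1% to 18.8% in the older mice, those of adipocyte genes at 24.8% to 26.9% and 24.9% to 26.6%, and those of endothelial genes at 19.3% to 22.2% and 17.6% to 21.7%. The part of cell-type shares in these values was not tested.

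The 10 DNMT, TET and related genes had a median difference of 0.0163 points, the largest being 3.88 points in Dnmt3l, at 76.7% and 80.6%, which was 0.9 points without FVB week 6 replicate 1. Uhrf1 stood at 1.6% and 1.85%, and the 16 Polycomb subunits stayed within -0.376 points (Cbx8) and 0.271 points (Pcgf2). Of 27 imprinted genes 13 were higher and 14 lower. Snrpn, expressed from the paternal copy, lay at 46.2% to 67.1% (median 57.8%) and then at 48.3% to 54.9% (median 49.5%), with 3 DMC losses. Its difference of -6.43 points was -3.13 points without both libraries that stood apart. Peg3 stood at 39.7% and 44.2%. Of 12 genes of growth hormone, IGF and sex steroid metabolism 7 were higher; Igfbp6 stood at 29.5% and 26.9% and Hsd17b1 at 26.9% and 28.1%. Among 7 genes known from methylation age predictors, 6 were higher. Hsf4 held 4 DMC gains and lay at 10.6% to 14.2% and then at 11.5% to 15.6%, and Kcns1 stood at 6.58% and 5.61%.

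Other promoters stood out by their number of DMCs. Fignl2, with 232 measured positions, held 20 gains and 1 loss and lay at 19.4% to 34.3% (median 29.6%) and then at 30% to 37.9% (median 33.8%). Mir3547 held 8 gains in 15 positions and stood at 61.7% and 68.8%. H3f4, a histone H3 gene of a family of near-identical coding sequences, held 30 losses in 43 positions. The H3f4 promoter shares positions with that of Trim17, but the 2 sets are not the same. Its promoter lay at 30.6% to 53.2% (median 45.5%) and then at 18.6% to 46% (median 23.8%), a difference of -16.88 points (SE 5.02, adjusted p = 0.725). Mice of the same period spanned more than this difference in both periods. Shank2, a postsynaptic scaffold gene, and Mab21l1, a developmental gene, held 5 losses each, as did Hhatl, and Bcar3, an adaptor of integrin signaling, held 4. The lower promoters with the smallest p all differed by under 5 points. Tmem138 and Cyb561a3, which share a promoter, stood at 5.36% and 3.57%, the shared promoter of the DNA repair gene Parp3 and Rrp9 at 9.13% and 7.36%, A530088E08Rik at 79.4% and 74.7%, and Slc25a26, the mitochondrial S-adenosylmethionine carrier, at 0.388% and 0.127%. The periods did not overlap in any of them.

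Regions were then formed as runs of at least 3 positions with gaps of at most 100 bp, wherever they lay. limma called 0 of 84518 regions in either direction at an adjusted p under 0.05 and 10 points (smallest adjusted p = 0.0733). At an unadjusted p under 0.05, 4227 (5.0%) were higher and 1887 (2.23%) lower at weeks 10 and 12, and the periods did not overlap in 242 higher (0.286%) and 67 lower regions (0.0793%). At least 3 DMC gains lay in 354 regions (0.419%) and at least 3 losses in 107 (0.127%). Of the 354, 52 lay in promoters, 78 in exons, 111 in introns and 113 between genes, and 30 had no overlap between the periods, as against 5 of the 107. The regions named next were chosen after their values were seen, as those with at least 3 DMCs and no overlap and the largest differences, or those with the most DMCs.

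The Hoxb6 region at chr11:96300773-96300843 lies in a coding exon, 1699 bp from the nearest TSS, and all 13 of its positions were DMC gains. It lay at 18.6% to 32.2% in the younger mice and at 32.3% to 57.5% in the older ones, with means of 26.2% ± 5.96 and 44.7% ± 10.3 (SD, n = 6 each; adjusted p = 0.504). An intron of Dysf, a membrane repair gene of muscle, went from 11.1% to 25.5% up to 27.8% to 47.6%, on 4 positions with a mean coverage of 22.4 reads. The intergenic site 13900 bp from the TSS of Ifitm1 went from 39.1% to 57.9% up to 64.5% to 70.1%, and one far from any gene at chr3:39461016-39461148 from 35% to 52.3% up to 60.6% to 77.6%. Introns of Pafah2, Spsb4 and Fam169b and an exon of Fry had means higher by 15.6 to 19.5 points, each without overlap.

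The regions with the most gains follow. Tbx3, a T-box gene needed for the mammary bud, held 20 gains among 53 positions of an exon and lay at 15% to 29.3% and then at 27.5% to 44.8%. Hlx, a homeobox gene, held 10 gains in 13 positions and lay at 31.3% to 48.2% and then at 45.7% to 61.4%. An intron of Ank3, a spectrin adaptor of epithelial lateral membranes, held 9 gains in 11 positions and lay at 35.4% to 66.7% and then at 60.8% to 78.6%. Exons of Adgrb1 and Mn1 and an intergenic site nearest to Piwil1 held 13, 9 and 10 gains. The periods overlapped in all 6.

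Losses were fewer. The Celsr1 intron, in a planar polarity gene, lay at 53.8% to 67.7% and then at 31.3% to 53.6%, with means of 61.5% ± 6.11 and 42.4% ± 8.58 (SD, n = 6 each; adjusted p = 0.504). An intron of Bahcc1 went from 40.6% to 55.8% down to 25.3% to 37.4%, an exon of Plin3, a lipid droplet gene, from 67.7% to 73.5% down to 53% to 64.5%, and an exon of Ehd2, a caveolar gene, from 29.2% to 38.4% down to 23.4% to 27.7%. The Coro1c intron, in an actin-binding coronin gene, held 8 losses in 12 positions and lay at 32.6% to 55.6% and then at 23.4% to 37.2%, with overlap. The 2 regions upstream of H3f4 held 20 losses in 20 positions and 9 in 9. The first lay at 24.4% to 54.5% in the younger mice and at 5.59% to 40.2% in the older ones.

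**Figure D4:**
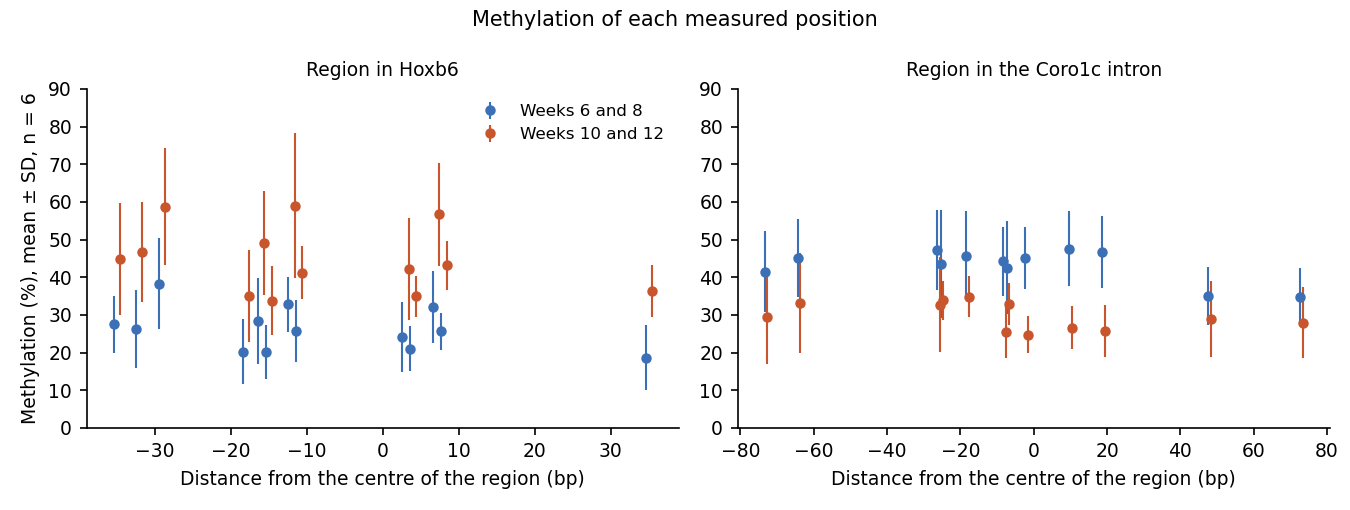
Methylation in percent (y axis, mean ± SD, n = 6 mice) of every measured position of the regions in Hoxb6 and the Coro1c intron by distance in bp from the centre of the region (x axis), at weeks 6 and 8 (blue) and weeks 10 and 12 (orange). All 13 Hoxb6 positions are higher at weeks 10 and 12, by 13.8 to 26.2 points, and all 12 Coro1c positions are lower, by 6.12 to 21 points.

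The 6 sequence motifs searched in 300 bases around each region, on both strands, were counted in gained and lost regions, in all regions of intermediate methylation and in all regions. No test was run on these shares. The AP-1 motif TGANTCA was in 8.19% of gained, 5.61% of lost, 8.43% of intermediate and 6.11% of all regions. The GATA motif AGATAA was in 11.9%, 3.74%, 11.6% and 8.51%, the ETS motif CCGGAAG in 13.3%, 16.8%, 11.8% and 12%, and the forkhead motif TGTTTAC in 5.65%, 2.8%, 3.69% and 2.8%. The RUNX motif TGTGGTT was in 6.22%, 3.74%, 5.48% and 4.32%, and the TEAD motif GGAATG in 17%, 17.8%, 17.4% and 14.7%. The sets differ in CpG sites per 300 bases, with medians of 10 in gained, 11 in lost and 7 in intermediate regions.

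The PyMT mice of the same weeks served to ask whether the positions that differed in FVB mice also moved with age when tumors grow in the gland. They did not move detectably. At the 7138 gained DMCs covered in all 22 libraries, the 5 PyMT mice of weeks 6 and 8 lay at 37.2% to 41.2% and the 5 of weeks 10 and 12 at 37.3% to 41.9%, with means of 39.3% ± 1.62 and 39.3% ± 1.76 (SD, n = 5; difference -0.0397 points, two-sided exact permutation test, p = 0.984). The FVB mice, which chose these positions, lay at 48.4% to 57.8% and 64% to 69.2%, all above the PyMT mice. At the 2885 lost DMCs the PyMT mice lay at 63% to 66.7% and then at 65.3% to 67.2%, a difference of 0.659 points (exact p = 0.452), and the FVB mice at 59.8% to 65.7% and 47.2% to 52.2%.

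At several epithelial promoters described above, all PyMT mice lay below all FVB mice. PyMT levels were 3.12% to 16.2% at Elf5, 6.21% to 31.4% at Ehf and 9.12% to 24.5% at Mir200c and Mir141. The same held at Sox10 (4.33% to 9.57%) and the basal gene Myh11 (3.06% to 11%). It also held at Prlr (4.3% to 23.7%), Csn3 (2.27% to 9.75%) and Wap (42.5% to 59.2%). At Krt5 the PyMT mice lay at 54.9% to 64.4%, overlapping the FVB mice, as they did at Krt7 with 15.2% to 37.9%. All PyMT mice also lay below all FVB mice at promoters outside the epithelial lists. Their levels were 13.1% to 30.2% at the muscle gene Ckm, 32% to 55.25% at Dnmt3l and 8.13% to 14.2% at Fignl2. The mean over the basal and myoepithelial list was 16.8% to 21% in PyMT and 14.8% to 19.3% in FVB mice. In 229 of the 354 gained regions (64.7%) all 10 PyMT mice lay below all 12 FVB mice, against 18.6% of all regions of intermediate methylation. In 38 of the 107 lost regions (35.5%) they lay above, against 7.07%. Gained and lost regions each had a median of 8 positions and intermediate regions 4, so these shares were not matched for size. The share of epithelial cells in these libraries was not measured, so its part in these levels was not tested.

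**Figure D5:**
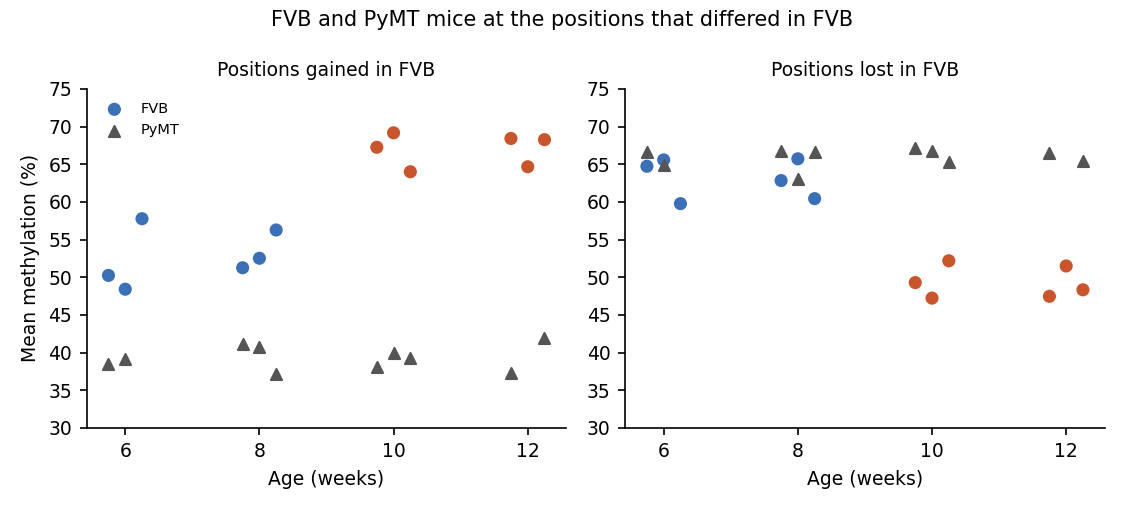
Mean methylation in percent (y axis, from 30% to 75%) of FVB mice (circles, blue at weeks 6 and 8, orange at weeks 10 and 12) and PyMT mice (gray triangles) by age in weeks (x axis), at positions gained (left) and lost (right) in FVB mice, which FVB mice themselves chose. PyMT mice stay between 37.2% and 41.9% at gained and between 63% and 67.2% at lost positions.

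The change of overall methylation did not differ detectably between FVB and PyMT mice. Over 1115690 positions covered in all 22 libraries it was 0.259 points in FVB and 0.0493 points in PyMT mice, whose means were 24.3% ± 0.288 and 24.4% ± 0.169 (SD, n = 5; exact p = 0.73). The difference of 0.21 points between the changes had p = 0.227 in an exact permutation of the periods within FVB and within PyMT mice. By region, limma's term for group (FVB or PyMT) and period passed an adjusted p of 0.05 in 106 of 82374 regions (0.129%). The change was larger in PyMT than in FVB mice in 102 of the 106, as at Eef1a2 and Edn3, where the FVB means of both periods were under 2%. FVB mice changed by at least 10 points in 5 of them. At the Ifitm1 site the later FVB mice were 20.5 points higher and the later PyMT mice lower, at 17.5% and then 11.7% (limma, adjusted p = 0.0216). A region in Gabbr1 differed by 12.6 points in FVB and -19.5 points in PyMT mice (adjusted p = 0.0259), one of Vps13c by 12.5 and -12.1 points (adjusted p = 0.037), one of Gli2, a Hedgehog effector, by 11.6 and -5.07 points (adjusted p = 0.0375), and one of Wwox by -10.2 and 10.3 points (adjusted p = 0.0354). The count of 106 went to 42 to 75 when 1 FVB library at a time was left out, and among the 5 regions only the Ifitm1 site passed without each of the 12.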

How the data were processed

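The measurements were ERRBS profiles of normal mammary gland DNA from 12 FVB mice and of bulk mammary tumor DNA from 10 PyMT mice. Per the submitters' notes and the methods of the study, reads were aligned with Bismark to mm10, and the authors deposited, for each sample, the read count at every CpG cytosine with a coverage of 10 or more, strands apart and without normalization. The deposited percent of those reads called methylated was multiplied by the count to recover methylated reads. The study removed 2 outlying samples before deposit.

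Positions on the 19 autosomes covered in all 12 FVB files were used (77% of those in any FVB file). Promoters reached 2 kb up- and downstream of curated RefSeq starts (43783 transcripts of 24963 genes), and promoters took precedence over exons, introns and intergenic DNA. DMCs were called by a logistic likelihood ratio test on pooled reads, with Benjamini-Hochberg q-values, promoters and regions by limma with a trend, and single values by exact permutation tests, two-sided. P-values of limma and of the permutations set a difference between periods against the spread between these mice. Named genes were the 6 promoters with the smallest p in each direction, those with the most promoter DMCs and the 2 members of each gene list with the largest absolute difference. Others are named by their counts and values. The members, lists and tests were chosen with earlier results of these data known. Alternatives were a coverage minimum of 20, merged strands, positions in all 22 files, the replicate block, each sample left out, other periods, scales, promoter and region rules and tests; leaving out 2 samples together, the chi-square test and pooled reads by class were added after seeing the data. Read depth sets counting error only. Each test was tried on simulated data. The software was limma 3.58.1 in R 4.3.3, and Python 3.11.15 with SciPy 1.17.1, NumPy 2.4.6 and pandas 2.3.3.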

Additional observations from a re-analysis of the deposited data

Results flagged for a closer look

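In groups of 6 mice, 192 sets of values were checked for a sample set apart from the rest, of which chance marks about 1 in 20, and 8 were marked. At weeks 6 and 8 these were the Ehf promoter, with 36.9% in FVB week 6 replicate 1 against 52.8% to 60.1% in the others, Adgre1, with 71.1% in FVB week 6 replicate 3 against 78.9% to 80.6%, Hoxb5, with 24.9% in FVB week 8 replicate 2 against 13.3% to 16.5%, and Shank2, with 20.3% in FVB week 6 replicate 2 against 13.0% to 14.8%. At weeks 10 and 12 they were the shared promoter of Mir141 and Mir200c, with 47.3% in FVB week 10 replicate 3 against 54.9% to 59.1%, Hhatl, with 55.9% in the same mouse against at most 51.9%, and Sox10, with 20.8% in FVB week 10 replicate 1 against 24.3% to 26.2%.

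Of the regions that passed limma's term for group (FVB or PyMT) and period, 5 changed by at least 10 points in FVB mice. The FVB change exceeded the PyMT change by 26.3 points near Ifitm1, by 32.1 points in Gabbr1, by 24.6 points in Vps13c and by 16.7 points in Gli2 (nearest TSS Mir6346), and the difference was -20.5 points in Wwox.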

How the results depend on the processing

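The gain of mean methylation over all positions kept its direction in every alternative. It kept its side of the threshold in all but 1, pooled reads, with 0.083 points (exact p = 0.913). By class, intergenic positions changed sign with pooled reads, at -0.28 points (exact p = 0.779). Without single mice it was 0.225 to 0.286 points (exact p = 0.00216 to 0.00433). DMC gains numbered 0 with the F test or limma on positions, 204 with the chi-square test, 113 at 25 points and 545 without overlap of the periods, and DMC losses 0, 68, 35 and 201. Leaving out single mice gave 5837 to 9732 gains and 2429 to 4015 losses, and the replicate block 6837 gains and 2768 losses. Promoter and region calls by limma were 0 in every alternative run (without single mice, 496 to 710 higher and 251 to 372 lower promoters, and 3496 to 5000 higher and 1547 to 2153 lower regions, at an unadjusted p under 0.05). Same-numbered mice of different weeks did not deviate together (mean correlation -0.0156 in 18 pairs, 0.00774 in 36 others), so the numbers were not taken to pair the samples. The PyMT change at gained DMCs, near 0, took values of -0.69 to 0.45 points without single PyMT mice and 0.00052 points at DMCs of at least 25 points. At lost DMCs it was 0.0146 to 0.944 points and -0.663 points. None of these was past the threshold. The 106 regions of the group and period term became 42 to 75 without single FVB mice. Of the 60 named promoters, 56 kept their direction in 14 alternatives, while Adgre1, Hsd17b1, Kcns1 and Krt71 did not. Leaving out 1 mouse moved the difference of 25 of the 60 by over 1.5 times, among them Ckm (7.79 points, and 4.91 without FVB week 6 replicate 1), Hoxc9 (-3.59, and -2.29 without FVB week 6 replicate 2) and Mab21l1 (-6.12, and -3.54 without FVB week 8 replicate 1).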

Other observations

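At single positions limma called 2 gains at an adjusted p under 0.05, both under 10 points. A position near Dio3, which inactivates thyroid hormone, at chr12:110278217 went from 0% to 3.35% (adjusted p = 0.0456), and one near Crtac1, a cartilage matrix gene, at chr19:42431172 from 0% to 1.36% (adjusted p = 0.0456). Every younger mouse read 0% at both positions, so these calls lie at the floor of the scale, where the younger mice had no spread.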
